A study of Mus musculus with 12 samples.

Results

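The receptors of the EGF, HGF and FGF families were followed as a set of 10 genes out of the 53715 genes in the count table. They were taken by name as Met, Egfr, Erbb2, Erbb3, Erbb4, Fgfr1, Fgfr2, Fgfr3, Fgfr4 and Klb. The rule itself uses no measured value, but earlier results of these data were known when the set was chosen. RNA was sequenced from hepatoblasts, which are Dlk1+ cells purified magnetically from pooled embryonic livers at E14.5 and lysed at once, from Diff. hepatocytes, which are such hepatoblasts after 4 days of culture protocol 1, and from mature hepatocytes, which were isolated by perfusion from adult male mice of 8 to 12 weeks and lysed at once. All mice were of the C57BL/6JOlaHsd strain, and each group had 4 biological replicates. The medium of protocol 1 contained serum, insulin, transferrin, selenium and dexamethasone, and the methods list no added EGF or HGF for it. The cells were seeded on fibronectin in medium with Matrigel, a basement membrane extract that can carry growth factors. Hepatoblasts and Diff. hepatocytes both start from cells of E14.5 embryos and differ by the time in culture. Mature hepatocytes differ from both in age and came from males, and the methods give no sex for the embryos. In comparisons with mature hepatocytes, the effects of age, of sex and, for Diff. hepatocytes, of culture cannot be told apart. In bulk RNA, fewer cells expressing a gene and less of its RNA per cell cannot be told apart.

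These receptors are tyrosine kinases in the cell membrane, apart from Klb. An EGF family ligand brings together a pair of ErbB receptors, and the pair signals through the Ras and MAP kinase cascade and through phosphoinositide 3-kinase. Erbb2 binds no known ligand and Erbb3 has a very weak kinase, so each relies on a partner. Met is the receptor of HGF, a growth factor made mainly by non-parenchymal cells of the liver. Fgfr4 with its co-receptor Klb receives the intestinal hormone FGF15 and represses bile acid synthesis in hepatocytes.

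The libraries held between 19581551 and 25216977 counts on genes. Levels are given as CPM, the counts of a gene scaled to a common library size by TMM, and genes are compared with each other per kilobase of exon (RPKM). Calls required that edgeR's adjusted p, over 17779 genes, was below 0.01 and that the log2 fold change exceeded 1 in size. The 10 receptor genes all passed the filter of more than 10 counts in any library, Erbb4 only through mature hepatocytes. Summed hepatocyte markers ran from 122041 to 168848 CPM in mature hepatocytes, above the 54808 to 63239 CPM of Diff. hepatocytes. Fetal markers such as Dlk1 and Afp summed to at most 110 CPM in mature hepatocytes. In every library of the other groups, Diff. hepatocytes included, they summed to at least 37890 CPM. Of these 6 markers, 5 were still called lower in Diff. hepatocytes than in hepatoblasts, Dlk1 and Afp among them, beside 14% of all genes. Of the 10 hepatocyte markers, 7 were called higher in that comparison and 0 lower, beside 14.9% of all genes called higher. Hepatoblast replicate 1 stood apart, with 2646 CPM of summed erythroid markers against 316 to 526 CPM in replicates 2 to 4. It had the lowest level of its group for 9 of the 10 receptors, Erbb4 being the exception. Without it, the receptor calls below kept their number and their members, and calls of other genes that it changed are named where they stand.

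The bases before the start sites of the ErbB genes with the largest differences and of Fgfr4 are shown because the results below turn on these genes, which did not move together. They are RefSeq sequences on GRCm38.p6, read 5' to 3' on the strand of the gene and ended before both the RefSeq and the GENCODE start of the gene. Egfr lies on the + strand and the stretch is chr11:16751953-16752202. That of Erbb2, also on the + strand, is chr11:98412234-98412469, that of Erbb4, on the - strand, is chr1:69108060-69108309, and that of Fgfr4, on the + strand, is chr13:55152568-55152639. Capitals mark the GC box GGGCGG on either strand.
Egfr: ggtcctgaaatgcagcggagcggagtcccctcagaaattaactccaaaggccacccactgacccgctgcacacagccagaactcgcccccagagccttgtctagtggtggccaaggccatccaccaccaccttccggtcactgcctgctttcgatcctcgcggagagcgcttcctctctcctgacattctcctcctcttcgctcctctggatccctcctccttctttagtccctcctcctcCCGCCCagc
Erbb2: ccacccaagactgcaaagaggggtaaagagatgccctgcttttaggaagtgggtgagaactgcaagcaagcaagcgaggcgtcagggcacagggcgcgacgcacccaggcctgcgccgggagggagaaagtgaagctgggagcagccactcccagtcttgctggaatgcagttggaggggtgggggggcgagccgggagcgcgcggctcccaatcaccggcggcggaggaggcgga
Erbb4: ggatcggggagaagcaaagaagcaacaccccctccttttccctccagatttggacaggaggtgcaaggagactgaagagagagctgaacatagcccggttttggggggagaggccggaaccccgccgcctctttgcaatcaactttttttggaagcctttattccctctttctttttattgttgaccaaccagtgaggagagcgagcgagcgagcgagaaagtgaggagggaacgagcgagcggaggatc
Fgfr4: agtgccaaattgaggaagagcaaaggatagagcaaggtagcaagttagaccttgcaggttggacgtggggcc
The Egfr stretch held 1 GC box directly before the start site, and the other 3 stretches held none. The stretches differ in length. That of Fgfr4 has 72 bases, and the uncut window of 250 bases of Fgfr4 held 2 GC boxes. Over windows of 250 bases, 33.0% of 32536 promoters in the RefSeq table held this motif, among them those of Egfr, Fgfr3, Fgfr4 and Met. The letters TATAAA, in 12.3% of all promoters, CAAAGTCCA, in 0.387%, and CTTTGAT, in 3.21%, and the palindromic HNF1 motif, in 0.00922%, were searched on both strands and were absent from the windows of the 8 receptor genes with an entry. G and C made up 60.8% of the Egfr, 65.7% of the Erbb2, 54.0% of the Erbb4 and 51.4% of the Fgfr4 stretch. The median over all promoters was 52.4%.

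Egfr, the receptor of EGF, TGF-alpha and amphiregulin, was the most strongly increased receptor in both comparisons with hepatoblasts. The gene lies on chromosome 11 at 16752203 to 16918158 (+ strand, GRCm38) and is protein-coding. Hepatoblasts held 3.84, 4.21, 5.60 and 5.10 CPM of Egfr, Diff. hepatocytes 198, 213, 196 and 218 CPM, and mature hepatocytes 1616, 1441, 921 and 690 CPM. The groups were ordered without overlap, and mature hepatocytes varied most. The log2 fold change was 5.46 (SE 0.27, 43.9-fold, edgeR adjusted p = 3.59e-09) from hepatoblasts to Diff. hepatocytes. From hepatoblasts to mature hepatocytes it was 7.96 (SE 0.30, 249-fold, edgeR adjusted p = 7.28e-11). Diff. hepatocytes stayed 5.66-fold below mature hepatocytes, at a log2 fold change of -2.50 (SE 0.23, edgeR adjusted p = 6.00e-07). Egfr was the 1 receptor that was called in all 3 comparisons.

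Erbb3, the partner receptor that binds neuregulins, also rose, and its levels in Diff. hepatocytes overlapped with those of the adult cells. Its CPM were 32.0, 37.7, 45.8 and 54.9 in hepatoblasts, 155, 205, 177 and 178 in Diff. hepatocytes, and 287, 194, 240 and 239 in mature hepatocytes. Both hepatocyte groups lay above every hepatoblast library, and they overlapped with each other. The gene (chromosome 10, 128567523 to 128589652, - strand) increased 4.20-fold in Diff. hepatocytes, a log2 fold change of 2.07 (SE 0.17, edgeR adjusted p = 2.60e-07). In mature hepatocytes it increased 5.63-fold, a log2 fold change of 2.49 (SE 0.17, edgeR adjusted p = 1.95e-08). Between Diff. and mature hepatocytes the log2 fold change was -0.42 with a 95% interval of -0.77 to -0.08, which was not called (edgeR adjusted p = 0.0330) and turned to 0.11 with library totals in place of TMM.

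Erbb2, the ligandless partner, was lowest in mature hepatocytes. Hepatoblasts had 11.5, 19.3, 19.6 and 19.5 CPM, Diff. hepatocytes 11.8, 11.6, 11.5 and 13.3 CPM, and mature hepatocytes 1.92, 1.73, 2.28 and 1.06 CPM. The first value of hepatoblasts, from the replicate with many erythroid transcripts, lay level with the lowest of Diff. hepatocytes. The gene (chromosome 11, 98412470 to 98437716, + strand) fell 9.97-fold from hepatoblasts to mature hepatocytes, at a log2 fold change of -3.32 (SE 0.23, edgeR adjusted p = 2.05e-08). Diff. hepatocytes were 6.87-fold above mature hepatocytes, at a log2 fold change of 2.78 (SE 0.23, edgeR adjusted p = 1.93e-07). Between Diff. hepatocytes and hepatoblasts the log2 fold change of -0.54 was not called (edgeR adjusted p = 0.0281). Summed markers of mesenchymal and stellate cells moved with Erbb2 in mature hepatocytes, at 52.6 to 76.0 CPM. Hepatoblasts held 694 to 1347 CPM of them and Diff. hepatocytes 1233 to 2976 CPM. Of the 10 markers none was at 0 in all libraries of a group. In mature hepatocytes against hepatoblasts 8 of them were called lower and 1 higher, beside 24.7% and 20.1% of all genes. Their part in the Erbb2 difference was not tested.

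Erbb4, a second neuregulin receptor, was highest in mature hepatocytes. Mature hepatocytes had 5.97, 2.89, 3.91 and 6.46 CPM. Hepatoblasts had 0.161, 0.0299, 0.324 and 0.298 CPM, and Diff. hepatocytes had 0, 0, 0.0444 and 0.0493 CPM. These values rest on 303 counts in all for mature hepatocytes, 25 for hepatoblasts and 2 for Diff. hepatocytes. Erbb4 passed the filter only through mature hepatocytes, with 45 to 104 counts per library. Its calls in comparisons with them thus rest on the group where it was high. Mature hepatocytes had 24.0 times the hepatoblast level, with an exact 95% counting interval of 15.9 to 37.7, and the rise was called (edgeR adjusted p = 2.28e-06). Against Diff. hepatocytes the ratio was 213, with a counting interval of 58.5 to 1767 (edgeR adjusted p = 6.57e-07). These intervals cover counting error only. The hepatoblast level was 8.88 times that of Diff. hepatocytes, with an interval of 2.21 to 77.3, and this difference was not called (edgeR adjusted p = 0.0129). It was called by edgeR without hepatoblast replicate 2 (adjusted p = 0.00214), with the replicate number as a block (adjusted p = 0.00830), with library totals in place of TMM (adjusted p = 0.00442) and without the filter on low counts (adjusted p = 0.00863), and by DESeq2 (adjusted p = 0.00982), and 5 of the 10 receptors were then called, or 6 with library totals. Over all genes, 5220 of 17779 were called with the block, 5606 of 17779 with library totals and 5253 of 17779 with DESeq2. Without hepatoblast replicate 2 the count was 4762 of 17632, and without the filter 5442 of 32377. Erbb4 spans chromosome 1 from 68032186 to 69108059 on the - strand.

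**Figure D1:**
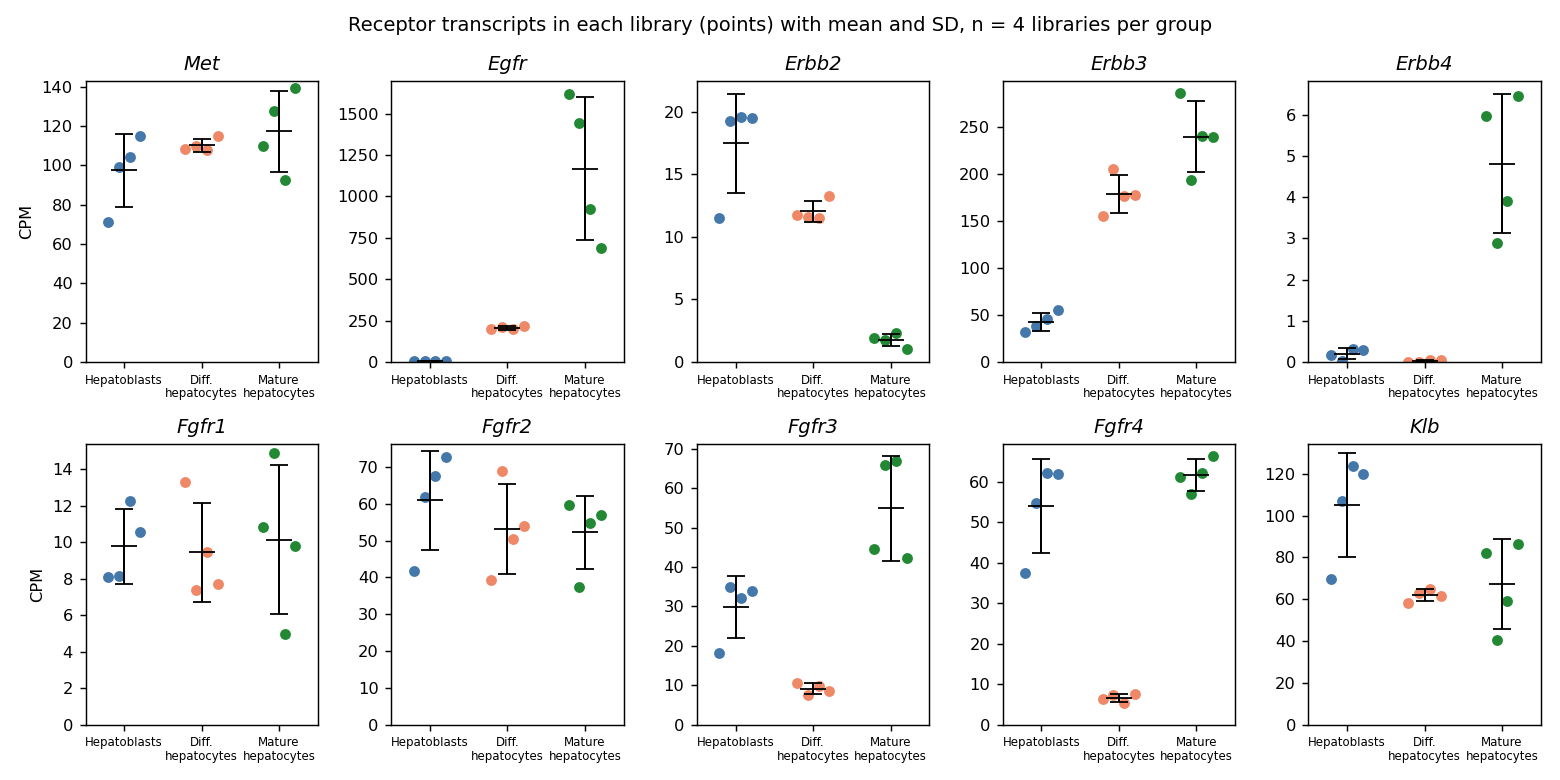
CPM (linear axis from 0) of the 10 receptor genes in each library, as points, with the mean and SD of the 4 libraries of a group as bars. Egfr runs from 3.84 CPM in hepatoblasts to 1616 CPM in mature hepatocytes without overlap of the groups, whereas Fgfr4 in Diff. hepatocytes (5.42 to 7.44 CPM) lies below both other groups.

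Fgfr4 and Fgfr3 were lower in Diff. hepatocytes than in both groups of freshly isolated cells, whereas Fgfr1 and Fgfr2 were not called in any comparison. Fgfr4 (chromosome 13, 55152640 to 55168759, + strand) had 37.3, 54.7, 62.2 and 61.8 CPM in hepatoblasts. Diff. hepatocytes held 6.23, 7.40, 5.42 and 7.44 CPM, and mature hepatocytes 61.2, 56.9, 62.2 and 66.3 CPM. The lowest freshly isolated library thus held several times the level of the highest cultured library. Fgfr4 fell 8.15-fold in Diff. hepatocytes against hepatoblasts, a log2 fold change of -3.03 (SE 0.16, edgeR adjusted p = 7.91e-09). It was 9.31-fold lower than in mature hepatocytes, a log2 fold change of -3.22 (SE 0.17, edgeR adjusted p = 2.65e-09). Between mature hepatocytes and hepatoblasts the log2 fold change was 0.19, with a 95% interval of -0.13 to 0.51 (edgeR adjusted p = 0.257), and with library totals in place of TMM it was -0.65.

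Fgfr3, a receptor that favours FGF1 and FGF9 among other ligands, was lowest in the same cells. Diff. hepatocytes held 10.5, 7.53, 9.91 and 8.53 CPM, below the 18.1, 35.0, 32.3 and 34.0 CPM of hepatoblasts and the 44.6, 65.8, 67.1 and 42.2 CPM of mature hepatocytes. The 3 groups did not overlap. Fgfr3 (chromosome 5, 33721674 to 33737068, + strand) fell by 1.71 on the log2 scale in Diff. hepatocytes against hepatoblasts (SE 0.22, edgeR adjusted p = 2.01e-05) and was lower than in mature hepatocytes by a log2 fold change of -2.59 (SE 0.23, edgeR adjusted p = 3.85e-07). The difference of 0.88 between mature hepatocytes and hepatoblasts had an edgeR adjusted p of 0.00199 and stayed under the fold change threshold. Of its 75-base sequences, 9.96% also lie in the antisense gene G630022F23Rik, which had at most 13 counts in any library. The strand setting of the counting is not given in the sources used here, so reads from this stretch could have been assigned to either gene.

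Fgfr1 and Fgfr2 were not called in any comparison after TMM scaling. Hepatoblasts held 8.06 to 12.3 CPM of Fgfr1, Diff. hepatocytes 7.36 to 13.3 CPM, and mature hepatocytes 4.96 to 14.9 CPM. For Fgfr2, whose epithelial isoform binds FGF7 and FGF10, the ranges were 41.8 to 72.6, 39.2 to 68.9 and 37.5 to 59.5 CPM in the same order. The ranges overlapped throughout. Over Met, Fgfr1 and Fgfr2 and the 3 comparisons, the absolute log2 fold change was at most 0.27, and the 95% intervals ran from -0.72 to 0.67. Fgfr2 (chromosome 7, 130162451 to 133123350, - strand) shares 2.19% of its 75-base sequences with Ctbp2, and Fgfr1 (chromosome 8, 25513654 to 25575718, + strand) shares 0.867% with Gm16159.

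Klb, the co-receptor beta-Klotho (chromosome 5, 65348314 to 65384007, + strand), had 69.6, 107, 124 and 120 CPM in hepatoblasts. Diff. hepatocytes held 58.0, 63.0, 64.8 and 61.8 CPM, and mature hepatocytes 82.2, 40.3, 59.2 and 86.6 CPM. Every Diff. hepatocyte library was below every hepatoblast library, by a log2 fold change of -0.77 (SE 0.22, edgeR adjusted p = 0.00850), which is under the fold change threshold. With library totals in place of TMM, Klb was called lower in Diff. hepatocytes (-1.07) and in mature hepatocytes (-1.50), each against hepatoblasts. Fgfr2 was then called lower in mature hepatocytes against hepatoblasts (-1.07). Of all 17779 tested genes, 3621 were then called lower in Diff. and 7920 in mature hepatocytes against hepatoblasts. The median log2 fold changes of all genes were then -0.34 and -1.0. Per kilobase of exon, Klb stood at 1.51 ± 0.04 times Fgfr4 in hepatoblasts (SD, n = 4), 7.41 ± 1.31 times in Diff. hepatocytes and 0.84 ± 0.24 times in mature hepatocytes. The ratios of the 3 groups did not overlap.

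Met (chromosome 6, 17463800 to 17573980, + strand), the HGF receptor, was not called in any comparison. Hepatoblasts held 71.2, 99.3, 104 and 115 CPM, Diff. hepatocytes 108, 110, 108 and 115 CPM, and mature hepatocytes 110, 127, 92.4 and 139 CPM. The ranges of the groups overlapped. The log2 fold change against hepatoblasts was 0.18 in Diff. hepatocytes (95% interval -0.14 to 0.49, edgeR adjusted p = 0.309) and 0.27 in mature hepatocytes (-0.05 to 0.58, edgeR adjusted p = 0.115). These directions depend on the scaling. With library totals in place of TMM the median log2 fold change of all genes moved from -0.01 to -0.34 for Diff. hepatocytes against hepatoblasts, from -0.15 to -1.0 for mature hepatocytes against hepatoblasts and from 0.09 to 0.62 for Diff. against mature hepatocytes, and Met then had -0.13, -0.58 and 0.44.

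Over the whole set, 4 of 10 receptors were called in Diff. hepatocytes against hepatoblasts, where 28.9% of all tested genes were called. Egfr and Erbb3 rose, where 14.9% of all genes were called higher, and Fgfr3 and Fgfr4 fell, where 14% were called lower. In mature hepatocytes against hepatoblasts, 4 of 10 were called beside 44.8% of all genes. Egfr, Erbb3 and Erbb4 were higher, like 20.1% of all genes, and Erbb2 was lower, like 24.7%. In Diff. against mature hepatocytes, 5 of 10 were called beside 35.8% of all genes. Erbb2 was higher, like 20.2% of all genes, and Egfr, Erbb4, Fgfr3 and Fgfr4 were lower, like 15.6%. The share of receptors called was not far from that of all genes. The median log2 fold changes of the receptors were -0.37, 0.23 and -0.27 in these comparisons. Over all tested genes the medians were -0.01, -0.15 and 0.09. The comparisons share libraries and are not independent of each other. Met, Fgfr1, Fgfr2 and Klb were called in none. The counts that involve mature hepatocytes include Erbb4, which passed the filter only through that group.

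**Figure D2:**
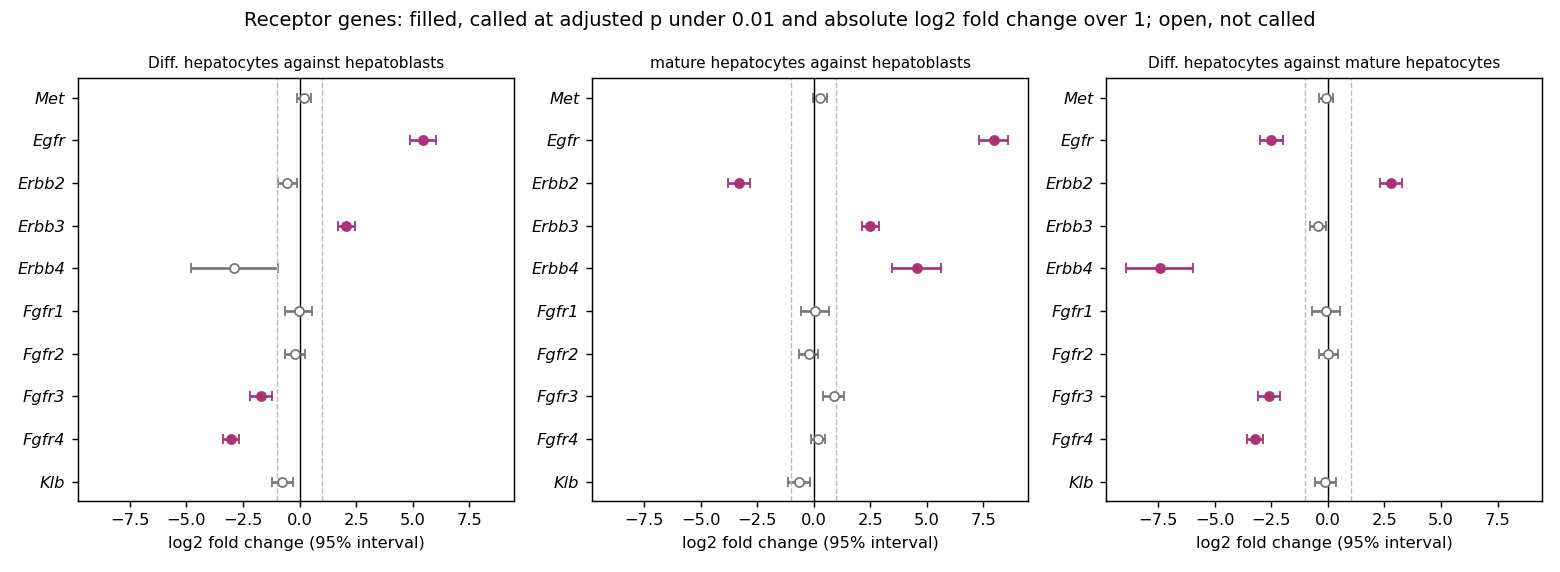
Log2 fold change of each receptor gene with its 95% interval in the 3 comparisons, from edgeR, where filled points mark called genes and the dashed lines mark an absolute log2 fold change of 1. Fgfr4 is called in both comparisons that involve Diff. hepatocytes (-3.03 and -3.22) and not between mature hepatocytes and hepatoblasts (0.19), and the fitted values of Erbb4 rest on 2 counts in Diff. hepatocytes.

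The order of the receptors by RPKM changed with the group. Klb (23.1 ± 5.45, SD, n = 4), Fgfr4 (15.2 ± 3.29) and Met (12.7 ± 2.42) led in hepatoblasts, with overlapping libraries, and Egfr (0.41 ± 0.07) ranked ahead of Erbb4 alone. In Diff. hepatocytes Erbb3 (29.7 ± 3.41) led, ahead of Egfr (18.2 ± 0.94), and Met (14.4 ± 0.43) overlapped with Klb (13.6 ± 0.63). In mature hepatocytes Egfr (103 ± 38.3) and Erbb3 (39.9 ± 6.28) led without overlap, and Fgfr4 (17.4 ± 1.09), Met (15.3 ± 2.68) and Klb (14.7 ± 4.73) overlapped with their neighbours. RPKM use the union of annotated exons, so a gene with unused exons appears lower than it is.

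The composition of each family within a library does not depend on the scaling between libraries. Egfr made up 3.86 ± 0.44% of the summed ErbB RPKM in hepatoblasts (SD, n = 4), 36.3 ± 1.95% among Diff. hepatocytes, and 70.2 ± 8.58% among mature hepatocytes. The 3 differences were 32.5, 66.4 and -33.9 percentage points, for Diff. hepatocytes and mature hepatocytes against hepatoblasts and for Diff. against mature hepatocytes. Each had an exact permutation p of 0.0286 (two-sided), the smallest that 4 against 4 libraries allow, and an adjusted p of 0.0343 over 6 tests. Only the shares of Egfr and Fgfr4 were tested. Both genes already differed in CPM, so these tests add no separate support to those differences. With no division by length the Egfr shares were 7.30%, 52.0% and 81.3% in the same order of groups, with the same adjusted p. Erbb3 held 65.1%, 59.1% and 29.3% of the family in hepatoblasts, Diff. hepatocytes and mature hepatocytes, and Erbb2 held 30.9%, 4.62% and 0.240%.

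Fgfr4 made up 58.0 ± 0.97% of the summed FGF receptor RPKM in hepatoblasts (SD, n = 4) and 55.9 ± 3.35% in mature hepatocytes, but 20.2 ± 2.18% in Diff. hepatocytes. Diff. hepatocytes were lower by -37.8 points than hepatoblasts and by -35.7 points than mature hepatocytes (exact permutation p = 0.0286, adjusted p = 0.0343 for each). Mature hepatocytes and hepatoblasts differed by -2.15 points (exact permutation p = 0.314). The shares themselves depend on the length used. With the longest transcript, Fgfr4 held 41.7% in hepatoblasts, 41.0% in mature and 11.1% in Diff. hepatocytes, and with no division by length 35.0%, 34.5% and 8.48%, with the calls of the differences unchanged in both. With the union of exons, Fgfr2 took the leading place in Diff. hepatocytes, with 55.1 ± 7.33%. It held 22.4 ± 0.60% in hepatoblasts and 16.2 ± 3.06% in mature hepatocytes, while its own CPM were not called changed. This change of leader depends on the length. With no division by length, Fgfr2 was already above Fgfr4 in hepatoblasts (mean 60.9 against 54.0 CPM), and below it in mature hepatocytes (52.2 against 61.6 CPM).

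**Figure D3:**
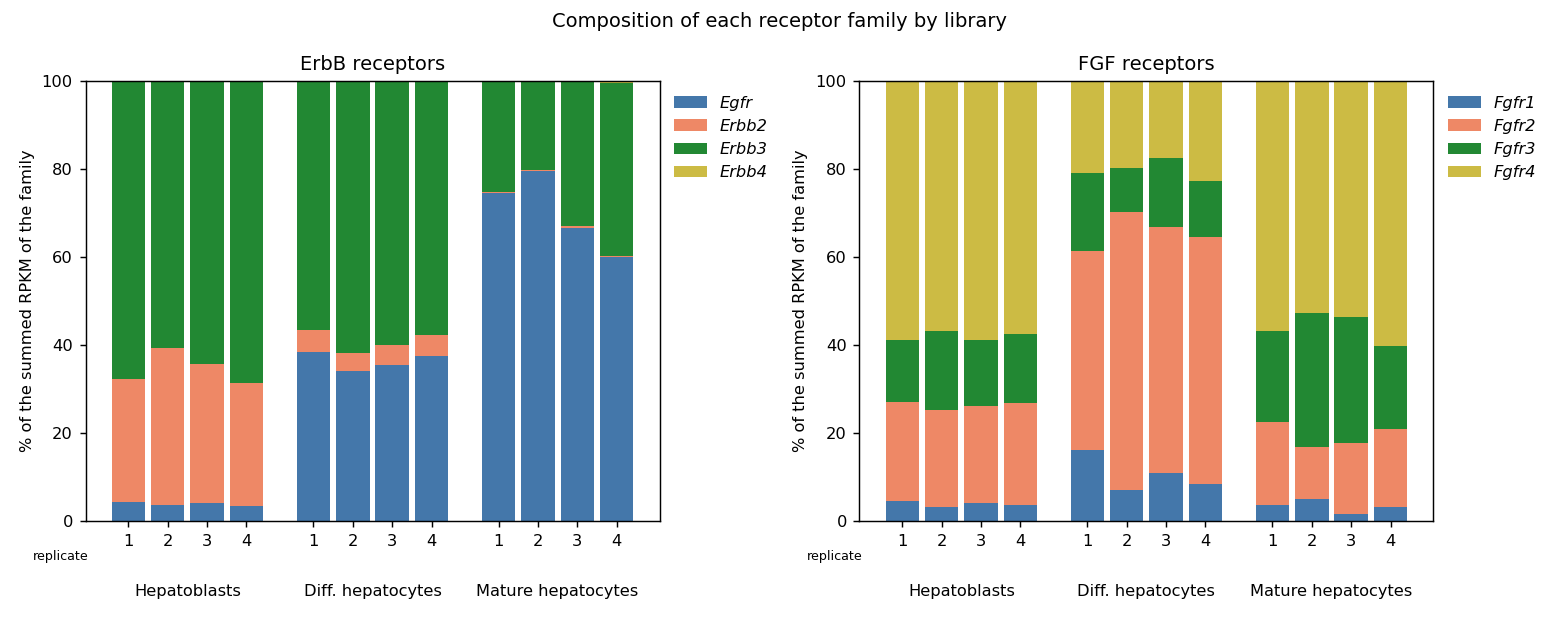
Share of each gene in the summed RPKM of the ErbB receptors (left) and of the FGF receptors (right), in percent, with 1 bar per library and the replicate number under it. Egfr grows from 3.86% in hepatoblasts to 36.3% in Diff. hepatocytes and 70.2% in mature hepatocytes on average, and Fgfr4 averages 58.0% in hepatoblasts and 55.9% in mature hepatocytes but 20.2% in Diff. hepatocytes, with lengths taken as the union of exons.

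The genes most like each receptor were sought among 10203 genes with a mean of at least 5 CPM, by Pearson's r of log2 CPM over the 12 libraries. The libraries fall into 3 groups, so r mainly describes the pattern of the group levels. Egfr was nearest to G6pc, the catalytic subunit of glucose-6-phosphatase (r = 0.998) and then to Trp53inp2. Erbb3 was nearest to Crp (r = 0.999), Btd and Abcb11, the bile salt export pump. Fgfr4 was nearest to Car14 (r = 0.991), Timd2 and Axin2, a target gene of Wnt signalling, whose mean was 0.324 CPM among Diff. hepatocytes, below the 7.16 CPM of hepatoblasts and the 10.4 CPM of mature hepatocytes. Erbb2 was nearest to Igf2bp2 (r = 0.993), Pdgfrb and Adamts9, of which Pdgfrb is a marker of mesenchymal cells. The best match of Met, Fgfr2 and Fgfr1 reached r = 0.904, 0.877 and 0.744.

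Most tested ligands of the ErbB receptors were higher in Diff. hepatocytes than in hepatoblasts. Of 9 tested EGF family ligands out of 11, 6 rose against hepatoblasts (Tgfa, Areg, Ereg, Btc, Nrg1 and Nrg4) and none fell, beside 14.9% of all genes called higher, and their median log2 fold change was 2.76. Tgfa, which encodes TGF-alpha, went from 15.8, 20.6, 25.1 and 25.5 CPM to 102, 74.5, 93.1 and 91.5 CPM, a log2 fold change of 2.05 (SE 0.16, edgeR adjusted p = 1.73e-07). In mature hepatocytes Tgfa ran from 30.3 to 42.7 CPM. Areg, which encodes amphiregulin, had 8.14 to 12.5 CPM in Diff. hepatocytes, but 0.0648 to 0.149 CPM in hepatoblasts and 0.128 to 0.480 CPM in mature hepatocytes. Nrg1, a ligand of Erbb3 and Erbb4, had 8.39 to 10.6 CPM in Diff. hepatocytes and at most 1.32 CPM in any other library.

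Other members of the ligand list followed different patterns. Nrg4, which binds Erbb4, was at 0.583 to 1.23 CPM in hepatoblasts and higher in both hepatocyte groups, at 8.75 to 14.1 CPM in Diff. and 4.26 to 18.5 CPM in mature hepatocytes. Egf was not called and stayed between 0.993 and 1.77 CPM in all libraries. Hbegf fell by 3.03 on the log2 scale in mature hepatocytes against hepatoblasts (SE 0.27, edgeR adjusted p = 2.64e-07). In mature hepatocytes against hepatoblasts 3 ligands rose and 2 fell, beside 20.1% and 24.7% of all genes. The rise of Areg rested on 22 counts in all mature hepatocyte libraries against 14 in all hepatoblast libraries, with overlapping ranges. It was no longer called without hepatoblast replicate 1. Areg passed the filter only through Diff. hepatocytes, so its calls in comparisons with them rest on the group where it was high. In Diff. against mature hepatocytes 6 were higher and none was lower, beside 20.2% and 15.6% of all genes. Markers of other cell types moved with the ligands in Diff. hepatocytes. The 4 mesothelial markers summed to 31.7 to 106 CPM there and to at most 11.3 CPM in any other library, with none of them at 0 in all libraries of a group. Of these markers Krt19, which bile duct cells also express, rose against hepatoblasts up to 24.8 to 88.9 CPM, Msln also rose, Upk3b fell and Wt1 was not called. Summed bile duct markers (92.8 to 233 CPM) and mesenchymal and stellate markers (1233 to 2976 CPM) were also highest there on average. Their part in the ligand levels was not tested. Without Diff. hepatocyte replicate 1, which held the highest sums, the same 6 ligands were called higher against hepatoblasts.

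**Figure D4:**
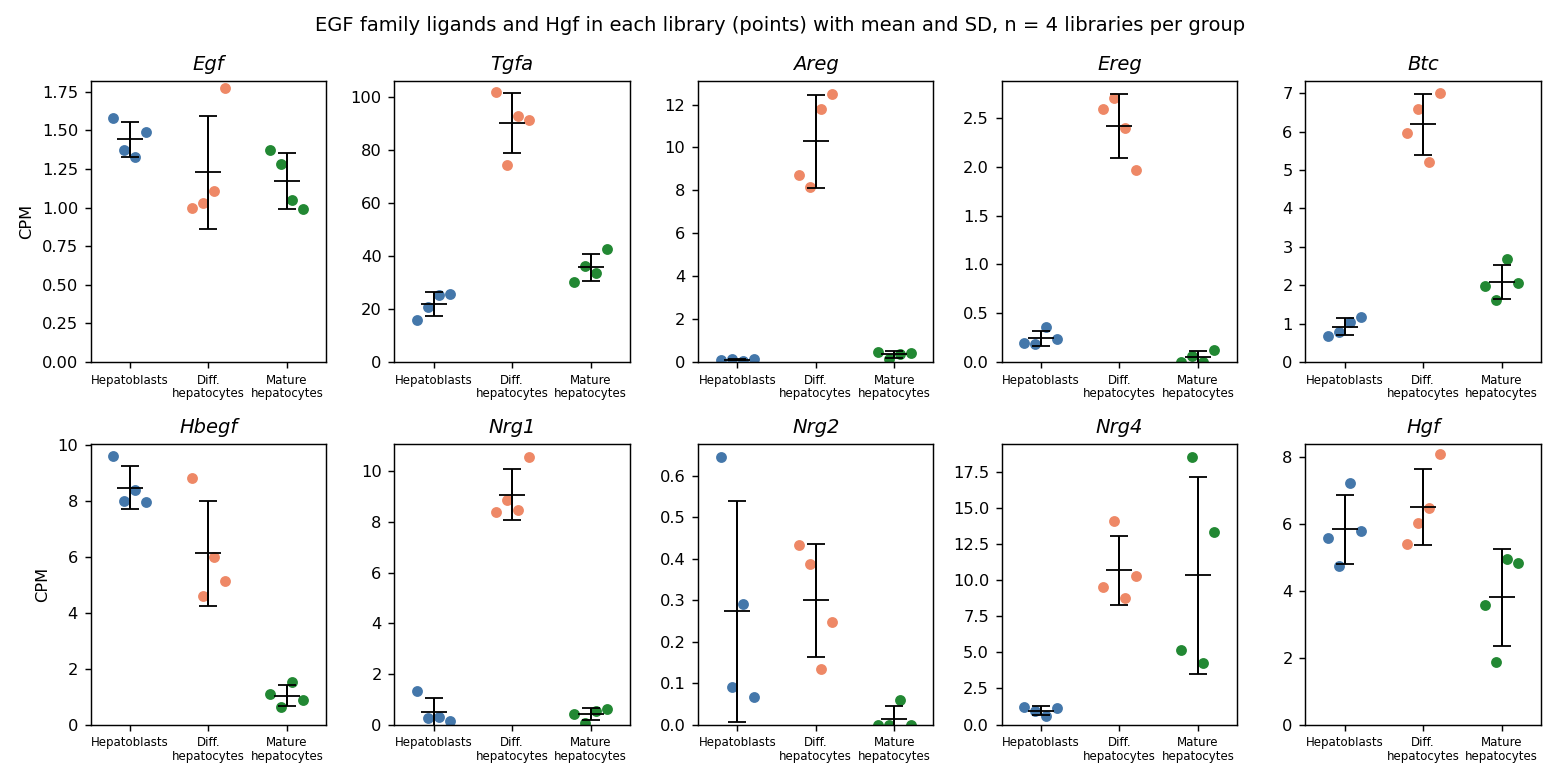
CPM (linear axis from 0) of the 9 tested EGF family ligands and of Hgf in each library, as points, with the mean and SD of the 4 libraries of a group as bars. Areg, Ereg, Btc, Tgfa and Nrg1 are highest in Diff. hepatocytes, Nrg4 is high in both hepatocyte groups, and Egf and Hgf overlap between Diff. hepatocytes and hepatoblasts.

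Hgf itself, the ligand of Met, ranged from 4.75 to 7.22 CPM among hepatoblasts, 5.40 to 8.09 CPM among Diff. hepatocytes and 1.86 to 4.96 CPM among mature hepatocytes, and it was not called in any comparison. Of the 8 genes for HGF, the related factor Mst1 and the proteases and inhibitors that control their activation, 5 rose in Diff. hepatocytes against hepatoblasts and none fell, beside 14.9% of all genes called higher and 14% lower. They were Mst1, the proteases St14 and Plau, and the protease inhibitors Spint1 and Spint2. St14, which encodes matriptase, reached 8.95 to 21.4 CPM in Diff. hepatocytes and at most 0.615 CPM in any other library, and Spint1 reached 4.22 to 7.48 CPM and at most 0.762 CPM. Summed bile duct markers were also highest in Diff. hepatocytes, at 92.8 to 233 CPM. Hepatoblasts held 27.3 to 35.7 CPM of them and mature hepatocytes 37.4 to 66.0 CPM. Their part in these differences was not tested. The receptor of Mst1, Mst1r, fell by 1.71 on the log2 scale in Diff. hepatocytes and by 4.09 in mature hepatocytes against hepatoblasts (edgeR adjusted p = 0.000300 and 3.64e-07).

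Of the 22 FGF ligands in the list, 8 passed the filter. Fgf1, a ligand of all FGF receptors, rose from 4.39 to 7.72 CPM in hepatoblasts up to 93.7 to 134 CPM in mature hepatocytes, with 7.09 to 9.76 CPM in Diff. hepatocytes, a log2 fold change of 4.41 between mature hepatocytes and hepatoblasts (SE 0.19, edgeR adjusted p = 2.61e-10). Fgf21, a hormone that acts through Klb, had no count in any hepatoblast library. It passed the filter only through the hepatocyte groups, so its calls against hepatoblasts rest on the groups where it was high. It reached 1.64 to 8.87 CPM in Diff. hepatocytes and 1.48 to 12.2 CPM in mature hepatocytes, which is at least 44.6-fold and at least 89.6-fold higher than a floor of 3 counts per library in hepatoblasts. Fgf2 rose from at most 1.13 CPM in hepatoblasts up to 3.69 to 4.56 CPM in Diff. hepatocytes, a log2 fold change of 2.24 (SE 0.33, edgeR adjusted p = 6.05e-05). In that comparison Fgf2 and Fgf21 were called higher and Fgf11 and Fgf23 lower, beside 14.9% and 14% of all genes, Fgf23 from 26 counts in all hepatoblast libraries together to none. Fgf23 was no longer called without Diff. hepatocyte replicate 1. It passed the filter only through hepatoblast replicate 1, with 13 counts, so its call rests on the group where it was high. Without that library Fgf23 was not tested, and Fgf13 was called higher.

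The bile acid genes downstream of Fgfr4 and Klb were higher in both hepatocyte groups than in hepatoblasts. Cyp7a1, which catalyses the rate-limiting step and is repressed by FGF15, had 1.19, 1.40, 1.78 and 2.92 CPM in hepatoblasts. Diff. hepatocytes held 43.3, 43.0, 49.5 and 45.8 CPM, and mature hepatocytes 38.3, 234, 128 and 249 CPM. Diff. hepatocytes were even, whereas 1 mature library lay below all of them. Cyp7a1, Cyp8b1 and Nr0b2, the nuclear receptor SHP, were all 3 called higher in both groups against hepatoblasts, beside 14.9% of all genes in Diff. and 20.1% in mature hepatocytes, and all 3 were lower in Diff. than in mature hepatocytes. For Cyp7a1 the latter log2 fold change was -1.84 (SE 0.42, edgeR adjusted p = 0.00181).

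Feedback and target genes of receptor signalling did not move as a block. Of 19 tested, 3 rose and 6 fell in Diff. hepatocytes against hepatoblasts, where 14.9% of all genes were called higher and 14% lower. In mature hepatocytes 5 rose and 7 fell, beside 20.1% and 24.7% of all genes. Without hepatoblast replicate 1 the counts were 2 and 5 in Diff. hepatocytes, where Cblb and Etv1 were lost, and 4 and 7 in mature hepatocytes, where Lrig3 was lost. Cblb and Etv1 were also lost without Diff. hepatocyte replicate 1. Spry1, Spry2, Dusp5 and Etv5, which are known to be induced by MAP kinase signalling, fell in both. Of the same kind of gene, Dusp4 rose in both, from at most 4.31 CPM in hepatoblasts up to 9.94 to 17.5 CPM in Diff. and 10.8 to 16.7 CPM in mature hepatocytes, and Spry4 fell in Diff. hepatocytes (4.29 to 6.35 CPM against 12.4 to 16.3 CPM) but was not called in mature hepatocytes (11.8 to 30.4 CPM). Spry2 ran from 9.55 to 15.2 CPM in hepatoblasts, and was lower in Diff. hepatocytes (2.71 to 5.14 CPM) and in mature hepatocytes (0.372 to 0.817 CPM). For Etv5 the ranges were 13.8 to 17.7, 2.76 to 5.66 and 2.28 to 4.66 CPM in the same order. Errfi1, an inhibitor that binds the EGFR kinase, rose with Egfr, from at most 213 CPM in hepatoblasts up to 497 to 589 CPM in Diff. and 1677 to 1951 CPM in mature hepatocytes. Dusp6, a phosphatase of ERK, rose in mature hepatocytes against hepatoblasts, by a log2 fold change of 2.68 (SE 0.27, edgeR adjusted p = 8.22e-07), and in Diff. hepatocytes it differed by 0.59 (edgeR adjusted p = 0.0596).

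**Figure D5:**
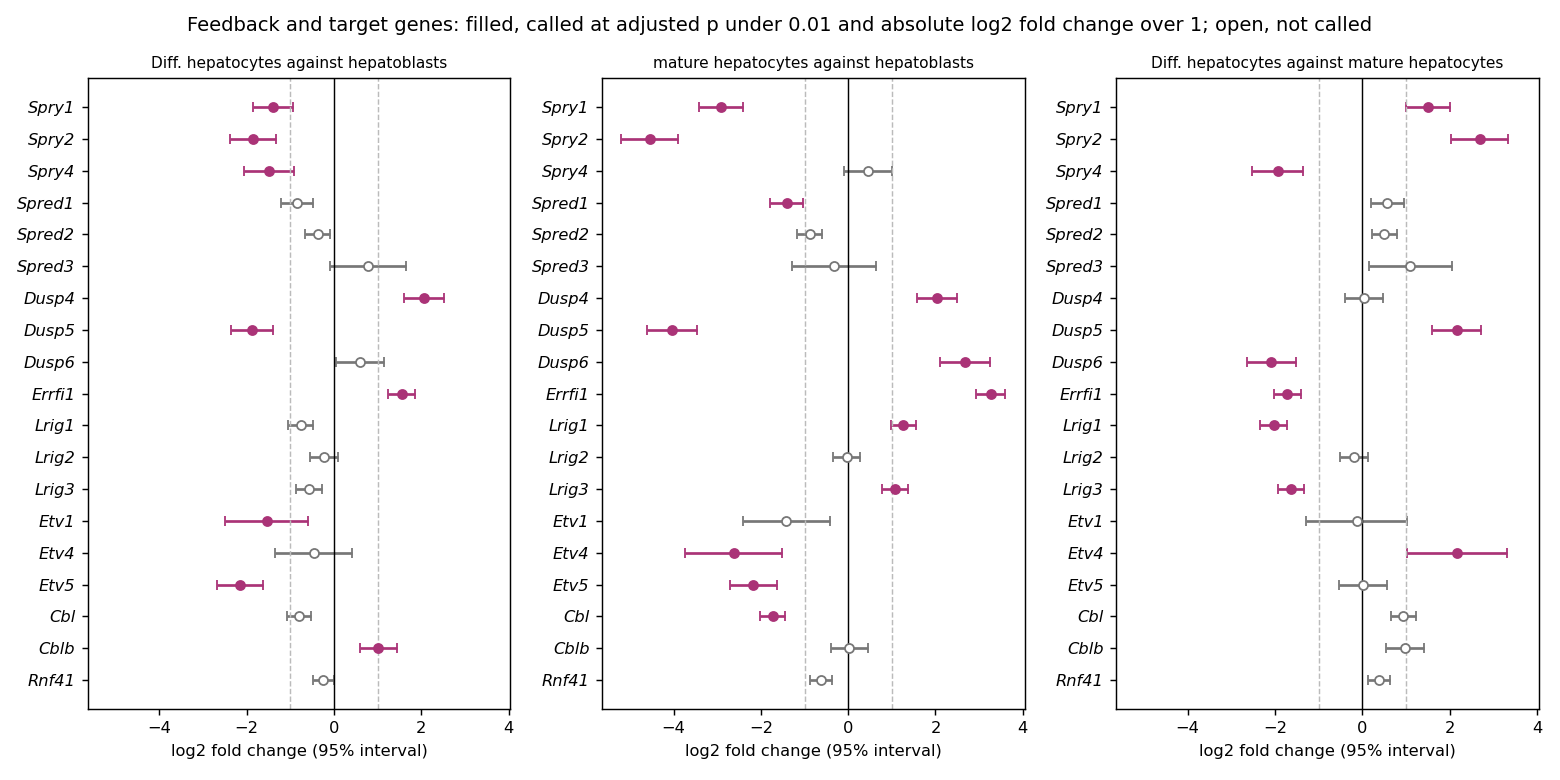
Log2 fold change with 95% interval of the 19 tested feedback and target genes in the 3 comparisons, from edgeR, where filled points mark called genes and the dashed lines mark an absolute log2 fold change of 1. Spry1, Spry2, Dusp5 and Etv5 lie left of 0 in both comparisons with hepatoblasts, and Errfi1 lies right of 0 in both.

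Most adaptors and kinases downstream of these receptors were not called. Of 19 genes, among them Frs2, Grb2 and Mapk3, none rose and 1 fell in Diff. hepatocytes against hepatoblasts, which was Frs3, beside 28.9% of all genes called. Without Diff. hepatocyte replicate 1 there were 2 that fell, the other being Mapk3. In mature hepatocytes none rose, beside 20.1% of all genes called higher, and Frs3, Gab2 and Nras were among those that fell. In Diff. against mature hepatocytes Gab2 was called higher. Their median log2 fold changes were -0.21, -0.06 and -0.17.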

How the data were processed

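RNA-seq libraries of 3 groups with 4 biological replicates each were analysed. The authors made poly(A) libraries, mapped them with STAR 2.5.2b to GRCm38 and counted reads on Ensembl genes, and deposited these as raw counts. They assessed duplicates with Picard 2.10.2. Whether these were removed, and the strand setting of the counts, are not given in the sources used here. Symbols, positions and exons came from GENCODE M21, in which 53620 of 53715 identifiers were found. Promoter sequences came from RefSeq.

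Genes that exceeded 10 counts in at least 1 library were fitted over the 12 libraries with edgeR 4.0.16 (R 4.3.3), TMM and the group as the only term, with Benjamini-Hochberg adjustment over 17779 genes. Intervals are 95%. The comparison was tested on simulated data. Libraries held 19581551 to 25216977 counts. Replicates differed beyond counting error (chi-square per gene 6.43 to 99.2), so no library was counted as a copy of another.

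The receptors and gene lists were chosen with earlier results of these data known. All 10 receptors are named. Of the other lists, each counted whole, a gene was eligible to be named if it was called in a comparison or is a ligand of a receptor, and the examples were picked after their values were seen. For each receptor the 3 most alike genes were sought. A few genes of these lists are not reported here. DESeq2 1.42.0, other scalings, filters and thresholds, a replicate block, fits of the compared groups alone and fits without each replicate were tried. Counts of the other lists without hepatoblast replicate 1 or Diff. hepatocyte replicate 1 were added after seeing the data.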

Additional observations from a re-analysis of the deposited data

Results flagged for a closer look

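The spread within each group of 4 libraries was looked at for the 10 receptors, which gave 30 groups. In 3 of them 1 library lay apart by Dixon's criterion, where chance alone gives about 1.5 at the 5% level. Erbb2 was low in hepatoblast replicate 1, at 11.5 CPM against 19.3 to 19.6 CPM in the other libraries. Fgfr3 was low in the same library, at 18.1 CPM against 32.3 to 35.0 CPM. That library also held 2646 CPM of summed erythroid markers, and their part in these values was not tested. Erbb2 was high in Diff. hepatocyte replicate 4, at 13.3 CPM against 11.5 to 11.8 CPM in the others. Without hepatoblast replicate 1, Erbb2 had a log2 fold change of -0.69 in Diff. hepatocytes and -3.48 in mature hepatocytes against hepatoblasts, and Fgfr3 had -1.88 and 0.70.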

How the results depend on the processing

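Of 596 log2 fold changes of single receptors under other settings, 565 kept their direction and their side of the threshold, 8 gained a call, none lost one, and 23 changed direction, all of them values that were not called. With calls made at 0.05 on the adjusted p alone, without regard to the fold, 7 receptors were called in Diff. hepatocytes against hepatoblasts. In that comparison 11349 of all 17779 tested genes had an unadjusted edgeR p below 0.05. That threshold is looser than the one used for the receptors, so the 2 counts cannot be compared. With library totals in place of TMM, which moved the median of all genes, Met had -0.13 in Diff. and -0.58 in mature hepatocytes against hepatoblasts and 0.44 between Diff. and mature hepatocytes. Fgfr1 then had -0.79 and Fgfr4 -0.65 in mature hepatocytes against hepatoblasts, and Erbb3 had 0.11, Fgfr1 0.43 and Klb 0.43 between Diff. and mature hepatocytes. Where 10 counts were required in every library, Erbb4 could not be tested, Fgfr1 had -0.074 in mature hepatocytes against hepatoblasts and 0.015 between Diff. and mature hepatocytes, and Met had 0.021 in the latter. The cause was not tested.

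Leaving out each replicate in turn, Fgfr1 ranged from -0.25 to 0.077 in Diff. and from -0.20 to 0.27 in mature hepatocytes against hepatoblasts. Between Diff. and mature hepatocytes the ranges were -0.33 to 0.15 for Fgfr1, -0.13 to 0.15 for Fgfr2, -0.19 to 0.00091 for Met and -0.30 to 0.027 for Klb. Counts for the other lists without hepatoblast replicate 1 or Diff. hepatocyte replicate 1 were chosen after seeing the data. They ranged from 3 to 5 for FGF ligands called in mature hepatocytes against hepatoblasts. Without hepatoblast replicate 1, Fgf13 was no longer called there, and Fgf10 fell below the filter and was not tested. For adaptors and kinases in Diff. hepatocytes against hepatoblasts the counts ranged from 1 to 2.

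Same-numbered libraries of hepatoblasts and Diff. hepatocytes correlated at -0.06 to 0.32, over 0.1 in 3 of 4 pairs, and those of the other pairs of groups at -0.08 to 0.09, over 0.1 in 0 of 4. Since not every pair was over 0.1, the numbers were not taken to pair the samples. With the replicate block, 5, 4 and 5 receptors were called in Diff. and in mature hepatocytes against hepatoblasts and in Diff. against mature hepatocytes. Of all 17779 tested genes, 5220 and 7988 were called in Diff. and in mature hepatocytes against hepatoblasts. For Diff. against mature hepatocytes 35.8% of all genes were called in the fit without the block. The added receptor was Erbb4, at -2.85 in Diff. hepatocytes against hepatoblasts. Erbb4 was also called there with DESeq2, at -3.16, with library totals, at -3.19, and without a filter, at -2.91. For Erbb4 the depth, 2 counts in all of Diff. hepatocytes, limits the precision.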
